A study of Mus musculus with 8 samples.

Results

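The 10 genes Icos, Tnfrsf4, Tnfrsf18, Tnfrsf9, Ikzf2, Foxp3, Il2ra, Gata3, Cd6 and Dusp4, out of 20275 gene symbols in the count tables, were followed in single cells of mouse colon tumours. They are genes of regulatory T cells and of T cell costimulation, and they were chosen by their levels in immune cells, since several of them were lower in FibΔZeb1 than in FibCtrl tumours. That genotype difference is therefore a description below and carries no test. All 10 genes had a row in the tables, although the Foxp3 row was listed for only 7 of the 8 plates. Transcripts were counted by SORT-seq, in which 1 sorted cell is placed in each well of a 384-well plate and its polyadenylated transcripts are tagged at their 3′ ends and counted with molecular identifiers.

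The tumours had grown from genetically engineered colon tumour organoids transplanted below the muscle layer of the cecum. FibΔZeb1 hosts (Zeb1Fib-deleted in the labels) were positive for a tamoxifen-inducible Cre transgene and lost Zeb1 in the cells in which that Cre was active. FibCtrl hosts (Zeb1Fib-Ctrl) were negative for the transgene and kept Zeb1. The labels name the transgene Col1a1Cre-ERT2, whereas the methods of the study name a Col1a2-CreERT2 knock-in allele. Both groups received the tamoxifen diet, so the diet does not separate them, and the tumour cells themselves were not the target of the deletion. Each genotype had 4 plates and each plate held cells of 1 mouse, so n = 4 per genotype unless stated. Replicates 1 and 2 of both genotypes shared a flow cell, as did replicates 3 and 4. Host age was not given in the sources used here. The study's methods name age-matched littermates of both sexes, and an FvB background for the Col1a2-CreERT2 line. Immune wells of FibCtrl replicates 2 and 3 and FibΔZeb1 replicates 1 and 2 held 37 to 223 transcripts of Ddx3y, a Y chromosome gene. The other plates held 0. Whether sex had a part in the differences below was not tested.

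Regulatory T cells are CD4 T cells that restrain immune responses, and Foxp3 is the transcription factor that defines them. They carry the alpha chain of the interleukin-2 receptor, encoded by Il2ra, at high level, and many of them, particularly in tumours and in the gut, also carry costimulatory receptors that conventional T cells display after activation. Icos is a receptor of the CD28 family, while Tnfrsf4 (OX40), Tnfrsf18 (GITR) and Tnfrsf9 (4-1BB) belong to the tumour necrosis factor receptor superfamily. In the colon, subsets of regulatory T cells also express the transcription factors Gata3 and Helios, the product of Ikzf2.

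Of 3072 wells, 1831 passed the filters on transcript number and mitochondrial share. The groups kept 294, 98, 196 and 235 wells for FibCtrl replicates 1 to 4, and 241, 230, 263 and 274 for FibΔZeb1 replicates 1 to 4. Clusters with immune markers held 794 of these wells. An immune well was called a T cell well when its transcripts of Cd3d, Cd3e and Cd3g, the chains of the T cell receptor complex, summed to at least 2, which gave 153 wells. Levels are given in CPM, transcripts per 1000000 transcripts of the named wells without spike-in and mitochondrial transcripts. FibCtrl replicate 2 stood apart. It had the fewest kept wells, the fewest cell transcripts (981881, against 2501608 to 5905188 on the other plates) and only 3 T cell wells, and values that rest on it are also given without it. A list of T cell markers beside the Cd3 genes, of which 7 of 10 were measured, summed to 2484 to 3758 CPM in T cell wells and to 91.8 to 458 CPM in the other immune wells. Of the 153 T cell wells, 124 lay in the cluster named T cell-like from these markers, 21 in a cluster with natural killer and innate lymphoid markers, and 8 in B cell, neutrophil or macrophage clusters. Whether these 8 wells held more than 1 cell was not tested.

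In the GRCm38 build the genes lie on 6 chromosomes. Icos (chr1:60977927-61000320, plus strand) and Ikzf2 (chr1:69531214-69687245, minus strand) are on chromosome 1, and Gata3 (chr2:9857078-9890034, minus strand) and Il2ra (chr2:11642807-11693193, plus strand) are on chromosome 2. Chromosome 4 carries Tnfrsf9 (chr4:150914562-150946102), Tnfrsf4 (chr4:156013843-156016612) and Tnfrsf18 (chr4:156026164-156028895), all on the plus strand, with 9551 bases between the last pair. Dusp4 is at chr8:34807297-34819894 (plus strand), Cd6 at chr19:10789341-10830058 (minus strand) and Foxp3 at chrX:7573644-7595245 (plus strand).

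Promoter sequence was available from RefSeq (GRCm38.p6) for 6 of the 10 genes, namely Foxp3, Il2ra, Tnfrsf4, Tnfrsf18, Tnfrsf9 and Gata3. Icos, Ikzf2, Cd6 and Dusp4 are named only. For 3 genes a window is shown. Their transcripts were higher in T cell wells in the data below, and the windows hold at least 1 of the motifs searched on both strands. The windows shown are also clear of the exons of coding genes, including those of the gene itself. The motifs were the core of the NFAT site (GGAAAA), the GATA site (AGATAA), the AP-1 site (TGANTCA), the forkhead site (TGTTTAC) and the NF-kB consensus, factors that act in activated or regulatory T cells. Each sequence is the 250 bases before a transcription start, 5′ to 3′ on the plus strand, with motif matches of either strand in capitals.
Il2ra, chr2:11642542-11642791: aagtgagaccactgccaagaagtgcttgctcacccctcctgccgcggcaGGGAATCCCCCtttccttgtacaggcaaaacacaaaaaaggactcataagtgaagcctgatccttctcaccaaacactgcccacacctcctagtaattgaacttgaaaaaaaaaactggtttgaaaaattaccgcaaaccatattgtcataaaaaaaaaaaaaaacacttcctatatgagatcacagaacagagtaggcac
Foxp3, second start, chrX:7580233-7580482: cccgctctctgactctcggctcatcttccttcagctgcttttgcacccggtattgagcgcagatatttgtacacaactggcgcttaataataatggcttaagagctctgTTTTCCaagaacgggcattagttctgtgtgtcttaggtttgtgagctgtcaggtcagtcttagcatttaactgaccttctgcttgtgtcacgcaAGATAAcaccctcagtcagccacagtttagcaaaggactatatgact
Tnfrsf9, first start, chr4:150919905-150920154: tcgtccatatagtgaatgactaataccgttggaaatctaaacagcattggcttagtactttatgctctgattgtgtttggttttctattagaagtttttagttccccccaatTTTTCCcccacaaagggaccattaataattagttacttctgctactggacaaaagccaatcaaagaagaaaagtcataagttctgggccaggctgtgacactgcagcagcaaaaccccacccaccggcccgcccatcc

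In the Il2ra window the capitals mark 2 overlapping NF-kB matches that begin 201 and 200 bases before the start. In the Foxp3 window they mark an NFAT core beginning 141 bases before the start and a GATA match beginning 47 bases before it. The Tnfrsf9 window holds an NFAT core beginning 138 bases before the start. Such matches are common. Of 32851 RefSeq promoters of the same length, 20.43% held the NFAT core, 9.988% the GATA site, 6.749% the AP-1 site, 3.166% the forkhead site and 7.251% the NF-kB consensus. The Gata3 window held none of the 5 motifs. A match is a description of the letters and not of binding.

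The first comparison measured the 10 genes in T cells against the other immune cells. Their values in that contrast were not used to choose them. They were known as T cell genes, however, so a higher level there was likely beforehand. The p-values are therefore no independent evidence that they belong to T cells. T cell wells were higher for each of the 9 genes that could be tested, with 4.92-fold to 98.3-fold differences. Summed counts of T cell wells and of other immune wells were compared within plates by edgeR's quasi-likelihood test with Benjamini-Hochberg adjustment over 4827 genes on 7 plates (FibCtrl replicate 2 had too few T cell wells). Of all genes tested, 9.3% were called higher in T cell wells and 12.1% lower. Il2ra did not pass the filter on low counts in this fit. The other immune wells held few transcripts of several members over the 8 plates, 13 of Tnfrsf4, 16 of Cd6 and 17 each of Foxp3 and Gata3. These genes passed the filter through the T cell wells, where they are high. In the other immune wells Tnfrsf18 did not exceed 36.1 CPM on any plate, nor Ikzf2 48.0 CPM. The filter thus favoured calls in this direction for members beyond the genes with few transcripts as well. The fitted log2 differences use the prior count of edgeR, so those of genes near 0 in the other wells depend on it.

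Among the receptors, Tnfrsf4, which binds OX40 ligand, lay between 135 and 783 CPM in T cell wells and between 0 and 24.1 CPM in the other immune wells over the 8 plates. Its log2 difference was 6.62 ± 0.39 (SE), with an adjusted p of 3.68e-08 by edgeR's quasi-likelihood test. Icos, whose ligand Icosl is made by antigen-presenting cells, ranged from 240 to 1332 CPM in T cell wells and from 4.48 to 96.5 CPM in the others. The difference for Icos was 5.73 ± 0.30 (edgeR quasi-likelihood adjusted p = 2.11e-08). Both ranges were separate from those of the other wells on every plate. Tnfrsf18 differed by 4.42 ± 0.30, with 195 to 469 CPM in T cell wells and 4.93 to 36.1 CPM in the others. Tnfrsf9, a receptor that is induced on activated T cells and on some myeloid cells, differed by 3.58 ± 0.61 (edgeR quasi-likelihood adjusted p = 5.90e-04). On each of the 8 plates Tnfrsf9 was higher in T cell wells, but its ranges overlapped, with 78.8 to 2039 CPM in T cell wells and 4.46 to 215 CPM in the others. Cd6, a surface glycoprotein that binds the adhesion molecule encoded by Alcam, ranged from 119 to 301 CPM against 0 to 12.6 CPM and differed by 5.14 ± 0.42.

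The Il2ra transcript, for the alpha chain that gives the interleukin-2 receptor its high affinity, was at 577, 78.2, 90.2 and 536 CPM in T cell wells of FibCtrl replicates 1 to 4. For FibΔZeb1 replicates 1 to 4 it was at 400, 0, 94.7 and 158 CPM. In the other immune wells Il2ra did not exceed 17.7 CPM on any plate. Its level was thus higher in T cell wells on 7 of 8 plates, and the remaining plate, FibΔZeb1 replicate 2, had no Il2ra transcript in either kind of well, which for its T cell wells allows up to 55.4 CPM (95% Poisson limit).

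Of the transcription factors, Foxp3 differed by 5.91 ± 0.38 (edgeR quasi-likelihood adjusted p = 7.50e-08), and it was at most 17.2 CPM in the other immune wells. Gata3, a factor of type 2 T helper cells and of tissue regulatory T cells, differed by 5.58 ± 0.33, with 60.1 to 782 CPM in T cell wells and 0 to 12.0 CPM in the others. The difference for Ikzf2 was 4.55 ± 0.36, with 355 to 807 CPM against 0 to 48.0 CPM. Dusp4, a nuclear phosphatase that acts on MAP kinases, had the smallest difference, 2.30 ± 0.48 (edgeR quasi-likelihood adjusted p = 0.00275), and its ranges overlapped.

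Away from T cells, most of the 10 genes were near 0, as the map of levels by cell class shows. Pooled over plates, Icos was at 879 CPM in T cell wells, 5.78 CPM in B cell wells, 5.80 CPM in neutrophils and 3.17 CPM in epithelial wells. Tnfrsf9 was the exception among the receptors, with 81.9 CPM in macrophages or monocytes, 73.1 CPM in mast cells and 44.4 CPM in stromal wells. These pooled values hide a spread between plates. Over all other immune wells, Tnfrsf9 was at 215 CPM on FibCtrl replicate 3 and 168 CPM on FibΔZeb1 replicate 3. The remaining plates had 4.46 to 25.9 CPM. Dusp4 stood at 124 CPM in T cell wells, 74.3 CPM in epithelial wells and 61.7 CPM in B cell wells. In 21 wells of the T cell-like cluster that fell short of the Cd3 limit, Icos was at 585 CPM and Ikzf2 at 460 CPM, so these wells, counted here among the other immune wells, carried some of the transcripts. Levels rose in steps along the Cd3 sum. Wells with a Cd3 sum of 1 (65 wells) held 174 CPM of the 10 genes together, wells with a sum of exactly 2 (21 wells, 12 of them in the T cell-like cluster) held 1010 CPM, and wells with a sum of 3 or more (132 wells) held 5118 CPM.

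**Figure D1:**
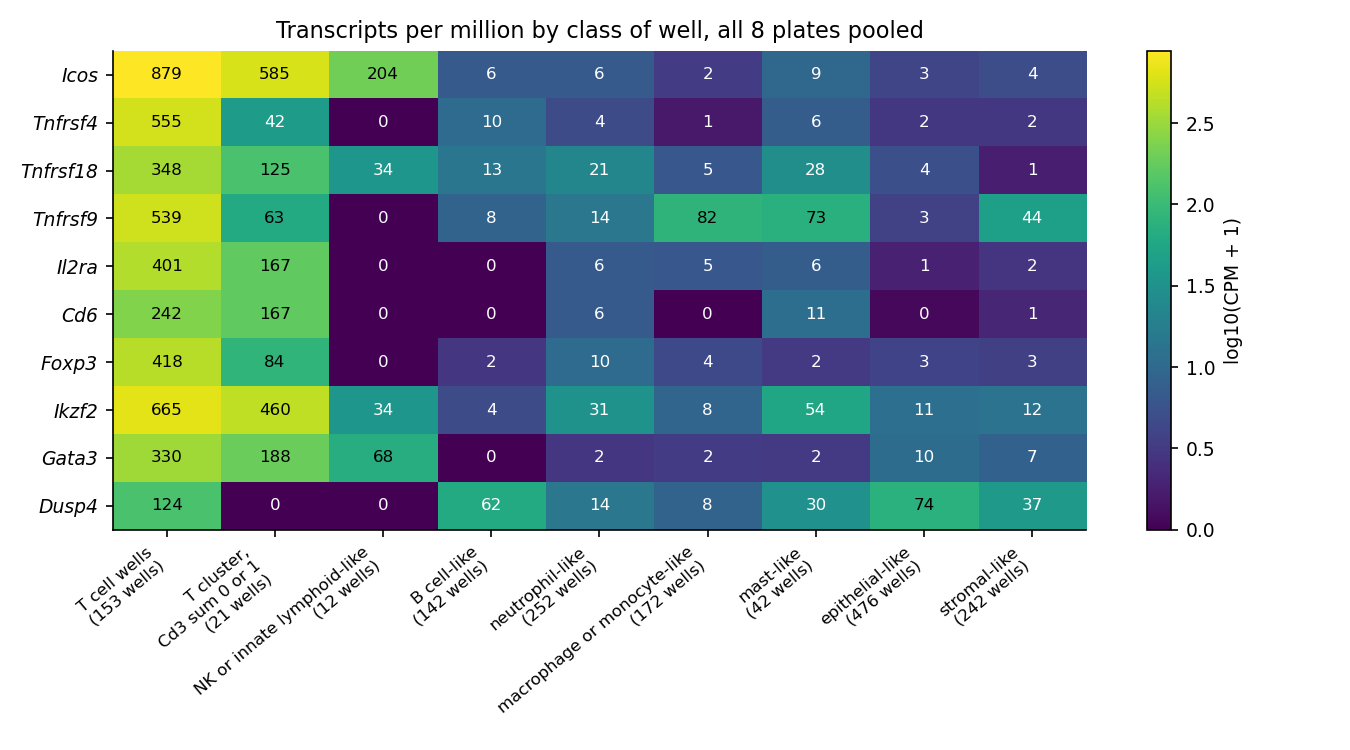
Level of each of the 10 genes (rows) in the wells of each cell class (columns), pooled over the 8 plates, as CPM in the cell and on a logarithmic colour scale. The T cell column is the highest for each gene, with 879 CPM for Icos, while Tnfrsf9 also reached 81.9 CPM in macrophages or monocytes and Dusp4 74.3 CPM in epithelial wells.

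Deeper wells detect more genes, so wells were also thinned to 1000 transcripts each before counting those with a transcript. After thinning, Icos was detected in 37.5% of 152 T cell wells (95% Wilson interval 30.2 to 45.4%), Ikzf2 in 27.6%, Tnfrsf9 in 24.3%, Tnfrsf4 in 23.7% and Foxp3 in 17.8%. Dusp4 had the lowest share, 10.5% (6.58 to 16.4%). Before thinning, the shares were 59.5% for Icos, 27.5% for Foxp3 and 23.5% for Dusp4. T cell wells held a median of 3 of the 10 genes and 9.15% of them held none, whereas neutrophil and B cell wells held a median of 0. These intervals cover counting error only.

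CD4 transcripts marked most of the wells with these genes. Of the 153 T cell wells, 80 had Cd4 and no Cd8a or Cd8b1, 18 had Cd8a or Cd8b1 and no Cd4, 2 had both and 53 had neither. Foxp3 was detected in 32 of the 80 Cd4 wells and in 1 of the 18 Cd8 wells. Scaled to depth, Tnfrsf18 was at 466 CPM in Cd4 wells (95% Poisson interval 408 to 529) and 74.3 CPM in Cd8 wells (20.2 to 190). For Tnfrsf9 the intervals overlapped, at 671 CPM (602 to 747) and 708 CPM (500 to 969). The Cd8 value of Tnfrsf9 rests on 38 transcripts in 4 of the 18 wells, whereas 36 of the 80 Cd4 wells held the gene. These intervals pool the wells of all plates and hold no spread between mice. The classes also differed in genotype, since FibCtrl gave 56 of the 80 Cd4 wells and 7 of the 18 Cd8 wells. The Cd8 wells were shallower, with a median of 2941 transcripts against 4230.

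Other genes of these pathways were measured in the same fit. Their lists were written out from general knowledge, but with earlier results of these data known. The list counts and medians here and below are therefore no independent evidence. Among checkpoint and costimulatory receptors, 6 of the 9 tested were higher in T cell wells and none was lower. They were Cd5 (log2 difference 6.34), Ctla4 (5.45), Cd96 (5.36), Pdcd1 (5.11), Cd28 (4.72) and Cd27 (4.68). The list had a median of 4.72, against 0.01 for all genes. Of 8 tested genes associated with regulatory T cells, 6 were higher, among them Folr4 (5.32), which encodes folate receptor 4, Il2rb (4.16), the beta chain of the interleukin-2 receptor, Itgae (2.79), Il2rg (1.72), Maf (1.57) and Nt5e (1.24). Naive and memory genes were split, with Tcf7 (4.54), Lef1 (3.41), Il7r (2.97) and Satb1 (2.26) higher, Klf2 lower (0.501 times the level of the other wells), and 3 of 8 not called. Nkg7 (3.56) and Ccl5 (2.42) were higher among 3 tested cytotoxic genes. Of 12 tested genes of the early response to antigen receptor signals, Tnfaip3 was higher (0.93), and Egr2 (-2.51), Dusp6 (-1.29), Dusp1 (-1.17) and Nr4a1 (-1.02) were lower. Tmem176a (-1.07) was the only type 17 gene called of 2 tested. Without FibΔZeb1 replicate 4, the calls of Klf2, Nr4a1 and Tmem176a were lost, Klf2 was also lost without FibCtrl replicate 1, Nr4a1 without FibΔZeb1 replicate 2 or 3, Tmem176a without FibCtrl replicate 4 or FibΔZeb1 replicate 2 or 3, and Nt5e without FibΔZeb1 replicate 1. With a Cd3 sum of at least 1 the calls of Tnfaip3 (adjusted p = 0.0563), Dusp6 (0.154), Dusp1 (0.106), Nr4a1 (0.0571), Maf (0.0563), Nt5e (0.235), Klf2 (0.0771) and Tmem176a (0.0996) were lost by edgeR's quasi-likelihood test. With T cell wells of any cluster, those of Il2rg, Maf, Nt5e, Satb1, Ccl5, Tmem176a, Dusp6, Egr2, Tnfaip3 and Alcam, a gene described next, were lost.

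Of the ligands of the members, 2 were called in the same fit. Icosl, the ligand of Icos, was lower in T cell wells than in the other immune wells (log2 difference -2.50), and so was Alcam, a ligand of Cd6 (-1.94). Pooled levels of Icosl were 14.1 CPM in T cell wells, 68.0 CPM in the other immune wells and 3.36 CPM in stromal wells. Tnfsf9, the ligand of Tnfrsf9, was at 18.0 CPM in T cell wells, 31.0 CPM in other immune wells and 38.0 CPM in epithelial wells. Tnfsf4 and Tnfsf18, the ligands of Tnfrsf4 and Tnfrsf18, had no transcript in any immune well, which allows up to 0.906 CPM (95% Poisson limit), and Il2, which encodes the ligand of the interleukin-2 receptor, was at 3.85 CPM in T cell wells and 0.304 CPM in the other immune wells, which rest on 3 transcripts and 1.

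The second comparison asked which of the genes went with Foxp3 inside the T cell wells. It set wells with a Foxp3 transcript against T cell wells without one on the 4 plates that had at least 3 of each (FibCtrl 1, 3 and 4 and FibΔZeb1 1). Ikzf2, Tnfrsf9 and Tnfrsf18 were higher in Foxp3 wells, by 6.76-fold, 4.99-fold and 3.79-fold. That was 3 of the 8 testable members, while 1.57% of the 1085 genes tested were called higher and 1.2% lower by edgeR's quasi-likelihood test. Dusp4 did not pass the filter and Foxp3, which defined the wells, gives no result. In the wells without Foxp3 of these plates, in that order, Ikzf2 had 17, 4, 11 and 24 transcripts. Tnfrsf9 had 15, 23, 4 and 17 there, and Tnfrsf18 had 33, 10, 2 and 10. These 3 members passed the low count filter only with the counts of the Foxp3 wells, where they are high, so the filter favoured calls in this direction.

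Ikzf2 was at 1216, 2238, 1173 and 1211 CPM in the Foxp3 wells of FibCtrl 1, FibCtrl 3, FibCtrl 4 and FibΔZeb1 1, in that order. In the T cell wells without Foxp3 of the same plates Ikzf2 was at 127, 74.1, 161 and 461 CPM. The lowest plate with Foxp3 lay above the highest without it, and the log2 difference was 2.76 ± 0.46 (edgeR quasi-likelihood adjusted p = 0.00673). Tnfrsf9 stood at 970, 1759, 782 and 863 CPM with Foxp3 and at 112, 427, 58.6 and 327 CPM without, a log2 difference of 2.32 ± 0.40 (edgeR quasi-likelihood adjusted p = 0.00843). Tnfrsf18 was at 521, 1278, 532 and 518 CPM with Foxp3 and at 246, 185, 29.3 and 192 CPM without, a difference of 1.92 ± 0.44 (edgeR quasi-likelihood adjusted p = 0.0438). Here too the plates of both kinds did not overlap.

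The remaining members did not pass the threshold of 0.05. Tnfrsf4 had a difference of 2.67 ± 0.65 (edgeR quasi-likelihood adjusted p = 0.0553), with 666 to 1677 CPM with Foxp3 and 0 to 412 CPM without, and was higher with Foxp3 on 4 of 4 plates. Il2ra differed by 1.93 ± 0.50 (edgeR quasi-likelihood adjusted p = 0.0666) and was also higher on 4 of 4 plates. Gata3 differed by 1.31 ± 0.43 and Cd6 by 0.98 ± 0.47, with adjusted p of 0.168 and 0.392 in the same edgeR fit. Icos, the member detected in the most T cell wells, had the smallest difference, 0.63 ± 0.38 (edgeR quasi-likelihood adjusted p = 0.484), and it was lower with Foxp3 on FibΔZeb1 1 (666 against 827 CPM). Dusp4 lay between 160 and 296 CPM with Foxp3 and between 38.4 and 67.1 CPM without.

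These calls rested on few plates. Without FibCtrl replicate 4 the number of genes called dropped from 30 to 3, and the adjusted p of Ikzf2 became 0.0703, that of Tnfrsf9 0.0748 and that of Tnfrsf18 0.138. Tnfrsf9 was also lost without FibCtrl replicate 1 (0.0558), and Tnfrsf18 without FibCtrl replicate 3 (0.101) or FibΔZeb1 replicate 1 (0.102), all by edgeR's quasi-likelihood test. Foxp3 wells were deeper, with a median of 5010 transcripts against 3190, and held a median of 8.5 of the 10 genes, Foxp3 included, against 2. With each well thinned to 1000 transcripts, 172 genes passed the filter and 14 were called. Tnfrsf9 and Icos were the members that passed, with log2 differences of 1.87 ± 0.46 (edgeR quasi-likelihood adjusted p = 0.00364) and 1.29 ± 0.41 (0.0364), so Icos became a call. The wells were still sorted into those with and without Foxp3 before thinning.

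Of the genes outside the 10, those with the highest differences in Foxp3 wells were Klrg1 (4.36 ± 0.68), Areg (3.98 ± 0.48), Itgae (3.05 ± 0.49), Fam46a (2.84 ± 0.42) and Stx11 (2.77 ± 0.65). Klrg1 encodes an inhibitory lectin-like receptor, Areg the growth factor amphiregulin and Itgae the integrin chain CD103, each of them also known from regulatory T cells of tissues. Areg reached 340, 399, 525 and 543 CPM in the Foxp3 wells of the 4 plates and 14.9, 18.5, 14.6 and 57.7 CPM in the wells without. The wells without Foxp3 held 2, 1, 1 and 3 Areg transcripts and 0, 0, 1 and 3 of Klrg1. Both genes thus passed the filter through the Foxp3 wells, and their differences depend on the prior count of edgeR. Counts were low there for other called genes too, with 7, 2, 4 and 1 transcripts of Itgae. Folr4 had 23, 5, 3 and 1 and Stx11 25, 2, 0 and 2. The filter therefore favoured calls of genes higher with Foxp3, also in the list counts that follow. In the list of regulatory T cell genes, 4 of 10 tested were higher, the fourth being Folr4 (2.38), with no gene lower and a list median of 1.88 against -0.00 for all genes. Ctla4 (2.13) was the only receptor of 6 on the checkpoint list to be called. Klf2 (0.2497 times the level without Foxp3) and S1pr1 (0.171 times), which belong to T cells that recirculate through lymph nodes, were lower, 2 of 5 tested genes of the naive and memory list. None of 2 cytotoxic genes, 1 type 17 gene and 8 antigen receptor response genes was called. Without FibCtrl replicate 4, the calls of Itgae (adjusted p = 0.0561), Fam46a (0.0631), Stx11 (0.138), Folr4 (0.0645), Ctla4 (0.0748), Klf2 (0.121) and S1pr1 (0.0631) were lost by edgeR's quasi-likelihood test. The calls of Klf2 and S1pr1 were each also lost without FibCtrl replicate 1 or FibΔZeb1 replicate 1, that of Klf2 without FibCtrl replicate 3, and that of Stx11 without FibCtrl replicate 3 or FibΔZeb1 replicate 1. With T cell wells of any cluster, the calls of Klf2 and S1pr1 were lost as well.

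Lyz1 (-5.30), Apoe (-4.34) and Il1b (-3.66), which are abundant in myeloid cells and were chosen after their values were seen, were called lower in Foxp3 wells. Lyz1 and Apoe were each lower on 3 of 4 plates and Il1b on 4 of 4. By edgeR's quasi-likelihood test, the calls of Lyz1 (adjusted p = 0.0716) and Apoe (0.189) were lost without FibCtrl replicate 4, that of Apoe also without FibΔZeb1 replicate 1 (0.185), and that of Il1b without FibCtrl replicate 3 (0.122) and under RLE size factors (0.0527). DESeq2 did not call Il1b (adjusted p = 0.147). All 3 calls were lost with T cell wells of any cluster. The 8 T cell wells in B cell, neutrophil or macrophage clusters held 95.8% of the Lyz1, 93.3% of the Apoe and 90.4% of the Il1b transcripts of all T cell wells. With those wells left out, Ikzf2 differed by 2.71 (edgeR quasi-likelihood adjusted p = 0.00688), Tnfrsf9 by 2.01 (0.0174) and Tnfrsf18 by 1.70 (0.0492), and Tnfrsf4 then passed the threshold at 2.36 (0.0492), while the call of Klf2 was lost (0.0959).

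The genotype comparison was divided into how many immune wells were T cells and how much of each gene the T cell wells held, because a sum over immune wells mixes both. The T cell wells numbered 45, 3, 18 and 24 of 122, 36, 94 and 102 immune wells for FibCtrl replicates 1 to 4. For FibΔZeb1 replicates 1 to 4 they were 17, 21, 10 and 15 of 115, 104, 106 and 115. As shares of the immune wells these were 36.9, 8.33, 19.1 and 23.5% in FibCtrl and 14.8, 20.2, 9.43 and 13.0% in FibΔZeb1. The groups overlapped, since FibCtrl replicate 2 was the lowest of the 8 plates and FibΔZeb1 replicate 2 lay above FibCtrl replicate 3.

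The mean share was 22.0% ± 11.8 (SD, n = 4) in FibCtrl and 14.4% ± 4.48 (SD, n = 4) in FibΔZeb1, a difference of -7.61 percentage points. It was -2.64 without FibCtrl replicate 1, the plate with the most T cell wells, and -12.2 without FibCtrl replicate 2. Within the flow cell of replicates 1 and 2 the difference was -5.12, and within that of replicates 3 and 4 it was -10.1. T cell wells held 37.8, 13.3, 14.4 and 31.7% of the immune transcripts in FibCtrl and 9.03, 19.8, 8.64 and 10.96% in FibΔZeb1. Since the sort set how many CD45-positive cells reached a plate, these are shares of the sorted immune cells and not densities in the tumour. T cell wells were shallower in FibΔZeb1, with medians of 3640, 2986, 3321 and 2025 transcripts against 4271, 4274, 3187 and 3969 in FibCtrl. Whether depth had a part in the difference in share was not tested.

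**Figure D2:**
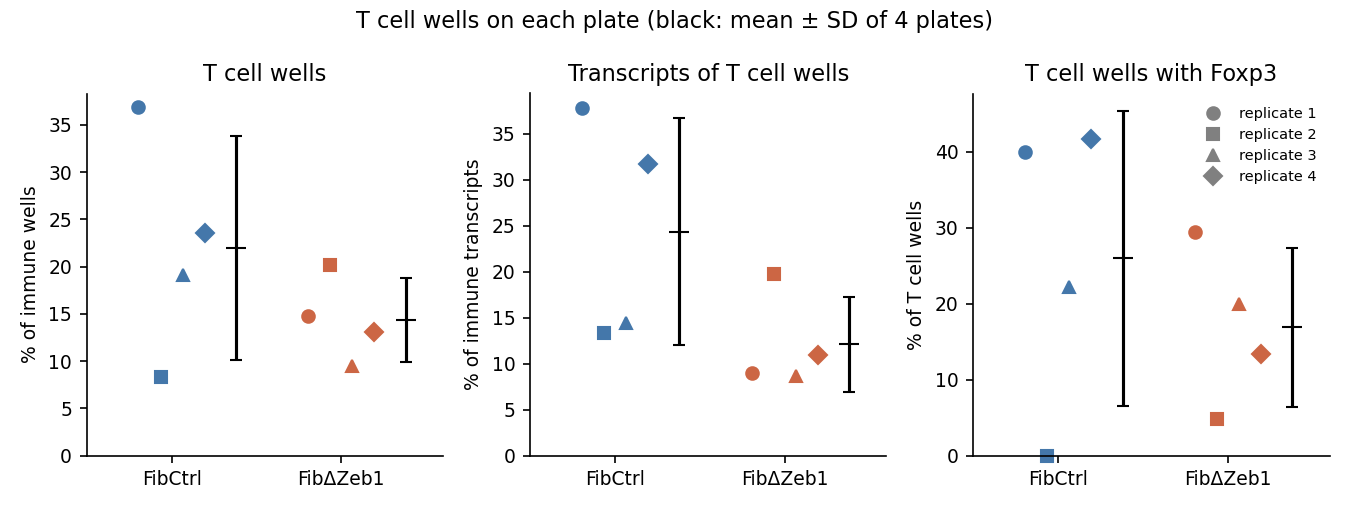
T cell wells as a percentage of the immune wells on each of the 8 plates, and the percentage of immune transcripts that they held, by genotype, with the mean and SD of 4 plates. The FibCtrl plates spread from 8.33 to 36.9% of wells and the FibΔZeb1 plates from 9.43 to 20.2%, so the groups overlap.

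Foxp3 was detected in 18 of 45, 0 of 3, 4 of 18 and 10 of 24 T cell wells of FibCtrl plates 1 to 4. In FibΔZeb1 it was detected in 5 of 17, 1 of 21, 2 of 10 and 2 of 15. The shares averaged 26.0% ± 19.4 (SD, n = 4) and 16.9% ± 10.4 (SD, n = 4) and overlapped. The 0 of FibCtrl replicate 2 rests on 3 wells, for which the 95% Wilson interval reaches 56.1%. Without that plate the FibCtrl mean was 34.6%. Pooled over plates, Cd4 wells made up 56 of 90 T cell wells in FibCtrl and 24 of 63 in FibΔZeb1, and Cd8 wells 7 of 90 and 11 of 63. Wells with neither were 25 of 90 and 28 of 63. Median depth was 4095 transcripts in the FibCtrl T cell wells and 2942 in those of FibΔZeb1, and whether depth had a part in these counts was not tested. FibCtrl replicate 1 gave 30 of the 56 Cd4 wells of its genotype. Of these 11 Cd8 wells, 7 were on FibΔZeb1 replicate 2, and without that plate they were 4 of 42.

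Over all immune wells, each of the 10 genes had a lower mean in FibΔZeb1, which is the pattern by which they were chosen. The fitted log2 differences ran from -1.28 ± 0.27 (SE) for Tnfrsf18 to -2.40 ± 0.80 for Il2ra, with a median of -1.90 against 0.01 over all 6835 genes fitted. In 6 genes (Icos, Tnfrsf4, Tnfrsf18, Ikzf2, Gata3 and Dusp4) every FibΔZeb1 plate lay below every FibCtrl plate, which held for 0.892% of all genes. Across the table, 45.2% of genes had a lower mean in FibΔZeb1. With edgeR's quasi-likelihood test and Benjamini-Hochberg adjustment 0.0% of genes were called in this comparison, 177 genes had an unadjusted p under 0.05, and DESeq2 called 0.

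Among the receptors, Icos was at 487, 261, 97.4 and 249 CPM in the immune wells of FibCtrl plates 1 to 4 and at 85.9, 56.4, 51.2 and 92.3 CPM in those of FibΔZeb1 plates 1 to 4. Tnfrsf4 was at 299, 73.1, 54.1 and 206 CPM in FibCtrl and at 42.9, 32.7, 16.4 and 37.5 CPM in FibΔZeb1. FibCtrl replicates 1 and 4, which had the most T cell wells, were the highest plates for Tnfrsf4, and FibCtrl replicate 3 came closest to the FibΔZeb1 plates for both genes. Foxp3 was at 168, 0, 58.4 and 214 CPM in FibCtrl and at 34.1, 23.8, 14.3 and 51.9 CPM in FibΔZeb1. Without FibCtrl replicate 2, where no Foxp3 transcript was found, the FibCtrl plates lay above the FibΔZeb1 plates for Foxp3 as well. Gata3 was at 99.9, 115, 41.1 and 191 CPM in FibCtrl and at 35.1, 11.9, 18.4 and 28.8 CPM in FibΔZeb1. For Tnfrsf9 the groups overlapped, at 175 to 283 CPM and 31.7 to 193 CPM, where FibΔZeb1 replicate 3 was the plate that reached into the FibCtrl range. Il2ra overlapped through FibCtrl replicates 2 and 3 (10.4 and 28.1 CPM, against up to 41.0 CPM in FibΔZeb1), and Cd6 through FibCtrl replicate 2 alone (20.9 CPM, against up to 26.7 CPM).

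Within T cell wells the genotypes lay closer together. Icos was at 1274, 1332, 602 and 765 CPM in FibCtrl and at 757, 240, 545 and 737 CPM in FibΔZeb1, and the groups overlapped. The log2 difference for Icos was -0.67 ± 0.38 (SE) in T cell wells, against -1.91 ± 0.43 in all immune wells. Fits in T cell wells used 7 plates, without FibCtrl replicate 2. Dusp4 did not pass the filter there. The other 9 genes had values from -0.30 ± 0.31 for Ikzf2 to -1.27 ± 0.78 for Il2ra, with a median of -0.84 against 0.03 over the 1375 genes fitted, of which 43.7% had a lower mean in FibΔZeb1. On those 7 plates Cd6, Foxp3 and Tnfrsf18 did not overlap between the genotypes, which held in this direction for 2.62% of all genes. With all 8 plates, Tnfrsf18 was the only one of the 10 without overlap. Transcripts of other cell types also differed between the T cell wells of the plates. Neutrophil markers (9 of 9 detected) summed to 206 to 40073 CPM in FibCtrl and 180 to 530 CPM in FibΔZeb1, and B cell markers (7 of 9 detected) to 0 to 121 CPM and 0 to 18855 CPM. With the 8 T cell wells of other clusters left out, 6 from FibCtrl and 2 from FibΔZeb1, the 9 values ran from -0.34 for Ikzf2 to -1.29 for Il2ra.

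Tnfrsf18 was at 385, 469, 391 and 350 CPM in T cell wells of FibCtrl plates 1 to 4 and at 335, 195, 331 and 263 CPM in those of FibΔZeb1 plates 1 to 4. The lowest FibCtrl plate and the highest FibΔZeb1 plate were 350 and 335 CPM, so the gap was small beside the SD of 50.2 CPM in FibCtrl and 66.2 CPM in FibΔZeb1. Tnfrsf4 stood at 783, 391, 361 and 648 CPM in FibCtrl and at 432, 135, 166 and 316 CPM in FibΔZeb1, and FibΔZeb1 replicate 1 reached into the FibCtrl range. Cd6 was at 301, 156, 256 and 292 CPM in FibCtrl and at 119, 120, 213 and 131 CPM in FibΔZeb1. For Cd6 the overlap came from FibCtrl replicate 2 alone, whose value rests on 2 transcripts.

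Tnfrsf9 was at 548, 2039, 677 and 520 CPM in FibCtrl T cell wells and at 562, 421, 450 and 78.8 CPM in those of FibΔZeb1. The value of 2039 comes from the 3 T cell wells of FibCtrl replicate 2, and without it the FibCtrl mean dropped from 946 to 582 CPM. The transcription factor Ikzf2 was the closest of the 10 between genotypes, at 680, 705, 482 and 807 CPM in FibCtrl and at 790, 481, 355 and 526 CPM in FibΔZeb1. Gata3 ranged from 241 to 782 CPM in FibCtrl and from 60.1 to 335 CPM in FibΔZeb1. Foxp3 lay at 437, 0, 406 and 637 CPM in FibCtrl and at 324, 120, 166 and 394 CPM in FibΔZeb1. The 0 of FibCtrl replicate 2 for Foxp3 allows up to 288 CPM (95% Poisson limit). Il2ra overlapped widely, and Dusp4 ranged from 75.2 to 391 CPM in FibCtrl and from 26.3 to 151 CPM in FibΔZeb1.

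Share and level were then separated by replacing one of them with its mean over all plates. The share used here is that of the immune transcripts, which also depends on the depth of the wells. It averaged 24.3% in FibCtrl and 12.1% in FibΔZeb1, against 22.0% and 14.4% of the immune wells. Observed levels in immune wells had a FibΔZeb1 to FibCtrl ratio of 0.172 (Il2ra) to 0.416 (Tnfrsf18), with a median of 0.285 over the 10 genes. With each plate's own T cell share of transcripts and the level per class held equal, the median ratio was 0.548. With the T cell share held equal and each plate's own levels, it was 0.527. All 10 ratios were below 1 in each case, and with all 8 plates the groups stayed apart for none of the 10 in either of the 2 recalculations (without FibCtrl replicate 2 they did for Cd6, with the share held equal). The recalculated medians were closer to each other than the range over genes. Without FibCtrl replicate 2 the median ratios were 0.246 observed, 0.479 for the share and 0.544 for the level.

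Genes differed in which of the 2 was larger. For Ikzf2 the ratio with the share held equal was 0.703 and that with the level held equal 0.571, and for Tnfrsf18 these were 0.731 and 0.586. Dusp4 had the reverse order, 0.455 with the share held equal and 0.708 with the level held equal. Without FibCtrl replicate 2 these 3 genes kept their order. Gata3 (0.432 and 0.530) turned round without that plate, to 0.555 with the share held equal and 0.465 with the level held equal. T cell wells held a median of 92.7% of the immune transcripts of the 10 genes, from 59.5% for Dusp4 and 69.1% for Tnfrsf9 to 97.1% for Tnfrsf4, so little of most genes came from other immune wells. For Tnfrsf9 the other immune wells were at 215 CPM on FibCtrl replicate 3 and 168 CPM on FibΔZeb1 replicate 3, and at 4.46 to 25.9 CPM on the other 6 plates.

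Foxp3 status and genotype were also set side by side, by pooling wells over plates. The intervals are 95% Poisson intervals of the counts and hold no spread between mice. In T cell wells with Foxp3 (32 wells of 3 FibCtrl plates and 10 wells of 4 FibΔZeb1 plates), Tnfrsf18 was at 561 CPM (475 to 656) in FibCtrl and 662 CPM (479 to 891) in FibΔZeb1. Ikzf2 was at 1244 and 1373 CPM, Tnfrsf9 at 923 and 1094 CPM, and Icos at 1238 and 1047 CPM. The intervals of these 4 genes overlapped. Il2ra was at 827 CPM (721 to 941) and 493 CPM (337 to 695) pooled. By plate, Il2ra was at 926, 479 and 749 CPM in FibCtrl plates 1, 3 and 4 and at 543, 0, 518 and 480 CPM in FibΔZeb1 plates 1 to 4, of which the last 3 had 1 or 2 Foxp3 wells each, and the groups overlapped.

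T cell wells without Foxp3 numbered 58 in FibCtrl and 53 in FibΔZeb1. Icos was at 1077, 1332, 315 and 498 CPM in those of FibCtrl plates 1 to 4 and at 827, 112, 406 and 196 CPM in those of FibΔZeb1 plates 1 to 4, and the groups overlapped. Pooled over plates, Icos was at 790 CPM (688 to 905) and 396 CPM (308 to 500). FibCtrl replicate 1 gave 144 of the 213 FibCtrl transcripts of Icos, and without it the FibCtrl level was 504 CPM (391 to 638), while FibΔZeb1 was at 212 CPM (139 to 311) without its replicate 1. Tnfrsf4 was at 235 CPM (180 to 299) and 80.2 CPM (43.9 to 135) pooled, but 55 of the 63 FibCtrl transcripts came from replicate 1, and the FibCtrl level without that plate was 59.2 CPM (25.6 to 117), below that of FibΔZeb1. FibΔZeb1 replicate 1 in turn held 13 of the 14 Tnfrsf4 transcripts of its genotype. Cd6 was at 223 and 91.7 CPM, with 141 CPM in FibCtrl without replicate 1. The pooled intervals of Tnfrsf18 (189 and 143 CPM) and Tnfrsf9 (253 and 178 CPM) overlapped. Ikzf2 was at 152 CPM (109 to 207) in FibCtrl and 292 CPM (218 to 384) in FibΔZeb1, although FibCtrl replicate 2 had the highest plate value, 705 CPM. FibΔZeb1 replicate 1 held 24 of the 51 Ikzf2 transcripts of its genotype. Without replicate 1 of each genotype, Ikzf2 was at 178 CPM (114 to 264) in FibCtrl and 221 CPM (145 to 321) in FibΔZeb1, and these intervals overlapped. The genotypes were not tested against each other in either kind of well.

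For the genes outside the 10, the genotype comparison in T cell wells could be tested. Of 87 genes on the 7 lists, 35 passed the filter and none was called, and the lowest adjusted p was 0.918 by edgeR's quasi-likelihood test. Ctla4 had a log2 difference of -0.81 ± 0.45, Areg of -1.12 ± 0.79, Folr4 of -0.70 ± 0.52, Tcf7 of 0.95 ± 0.52, Ccl5 of 1.39 ± 0.78 and Nr4a2 of 1.52 ± 0.55. Of all 1375 genes, 0.0727% were called. This was Stmn1 alone, a microtubule regulator of dividing cells that was named after its value was seen (-2.36 ± 0.32, edgeR quasi-likelihood adjusted p = 0.0177). Its adjusted p lay between 0.0740 and 0.125 without FibCtrl replicate 3 or 4 or FibΔZeb1 replicate 1, 2 or 3, so those calls were lost.

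Epithelial wells served as a place where the choice of the 10 genes played no part. Dusp4, Gata3 and Ikzf2 passed the filter there, and none differed between genotypes at the threshold, with 0.0% of 10350 genes called. The log2 differences were -0.03 ± 0.38 for Dusp4, -0.00 ± 1.09 for Gata3 and 1.47 ± 0.98 for Ikzf2, each with an edgeR quasi-likelihood adjusted p of 0.99997. At an unadjusted p under 0.05 there were 194 genes, and DESeq2 called 1. Dusp4 averaged 64.7 ± 29.7 CPM (SD, n = 4) in FibCtrl and 65.3 ± 32.4 CPM (SD, n = 4) in FibΔZeb1. The mean of Ikzf2 in FibΔZeb1 was set by replicate 2, at 55.0 CPM against 0.655 to 7.66 CPM on the other 3 plates.

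Over the 8 plates, 5 genes outside the 10 tracked their mean log2 level in immune wells most closely among 4733 genes with at least 20 transcripts per plate on average. They were Sdf4 (Pearson r = 0.961), Ube2c (0.903), Ramp1 (0.867), Fundc2 (0.863) and Krcc1 (0.863). The 8 plates share depth and T cell share with both sides of each correlation, and the genes were the highest of many, so these values describe the plates only. Sdf4, a calcium-binding protein of the secretory pathway, was at 347, 209, 216 and 394 CPM in the immune wells of FibCtrl plates 1 to 4 and at 157, 154, 178 and 182 CPM in FibΔZeb1. Its level was 624 CPM in T cell wells and 146 CPM in the other immune wells. Sdf4 lies directly before Tnfrsf4 on the same strand of chromosome 4, with 232 bases between the end of Sdf4 and the start of Tnfrsf4.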

How the data were processed

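Sorted cells were processed by CEL-Seq2 per the labels, and per the study's methods the reads were aligned with BWA to GRCm38. Cell Ranger 2.1.1 is also named in the submitters' processing notes. The deposited values are expected counts, namely transcript counts per gene and well that the authors had corrected for collisions between identical molecular identifiers and not scaled to depth (87.1% of the values above 0 were whole within 1e-09). Whether counting used the strand was not given in the sources used here. The same 384 well barcodes serve every plate, so barcodes shared between plates identify no cell. Spike-ins took 9.15% of all transcripts, and spike-in and mitochondrial rows were left out.

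The 10 genes and all lists were chosen with earlier results of these data known. Wells with at least 500 transcripts and a mitochondrial share within 3 median absolute deviations of the plate's median were kept. They were clustered by the Leiden method on a nearest-neighbour graph (2000 variable genes, 20 components, 15 neighbours, resolution 1), which gave 19 clusters. Of these, 17 were named from marker lists and 9 were immune. No doublet caller was run, since 1 cell was sorted per well. The Cd3 limit was applied inside immune clusters. Of the 191 wells that meet it in any cluster, 38 lay outside these and held a median of 51899 transcripts, and they entered only as an alternative. The receptor constant genes of the T cell list were not analysed here, and neither was the sort gate of each well.

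Counts were summed per plate and class and rounded. Plates with under 10 wells of a class, or under 3 Foxp3 wells, were left out. Differences were tested by quasi-likelihood in edgeR 4.0.16 (filterByExpr, TMM, Benjamini-Hochberg over all genes tested, threshold 0.05) under R 4.3.3, with the plate as a block within plates. The SE is the log2 difference divided by the square root of its F statistic. The fits were tested on simulated data. Each plate held 1 mouse, so p-values measure the spread between plates. The alternatives were DESeq2 1.42.0 and other scaling, filters, Cd3 limits, well sets, covariates and left-out plates. Named genes were the 10 members, the called genes of the fixed lists, the 5 other genes with the highest call in Foxp3 wells and the 5 that tracked the members best, while any other gene is said to have been chosen after its values were seen. Where a list had few calls, other members are given by their counts. Thinned wells, the left-out wells of other clusters and pooled levels with a plate left out were alternatives chosen after seeing the data. Coordinates are from GENCODE on GRCm38.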

Additional observations from a re-analysis of the deposited data

Results flagged for a closer look

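Within each genotype, the 4 plates were checked for a single plate that lay far from the other 3. The check covered the levels of the 10 genes, the T cell shares of immune wells and transcripts, and the Foxp3 share of T cell wells. Of 86 groups checked 7 had such a plate, and chance alone marks about 1 in 20 groups. Tnfrsf9 accounted for 3 of them. In T cell wells it was at 2039 CPM on FibCtrl replicate 2, against 520 to 677 CPM on the other FibCtrl plates. In the other immune wells it was at 215 CPM on FibCtrl replicate 3, against 4.46 to 14.8 CPM, and at 168 CPM on FibΔZeb1 replicate 3, against 8.57 to 25.9 CPM. Cd6 was at 213 CPM in T cell wells of FibΔZeb1 replicate 3, against 119 to 131 CPM, and at 0.680 CPM in epithelial wells of FibCtrl replicate 1, where the other FibCtrl plates had 0. Icos reached 96.5 CPM in the other immune wells of FibCtrl replicate 2, against 8.92 to 12.6 CPM. Ikzf2 was at 55.0 CPM in epithelial wells of FibΔZeb1 replicate 2, against 0.655 to 7.66 CPM.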

How the results depend on the processing

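T cell wells against other immune wells called 1031 genes, 1804 with no low count filter, 504 with a Cd3 sum of at least 1, 312 with thinned wells, and 830 to 1076 with a plate left out. The members stayed positive and called in all 148 alternative values (1.86 to 6.88). With T cell wells of any class, Nt5e (-0.17) and Tnfaip3 (-0.33) changed sign. Foxp3 wells called 30 genes, 148 with no filter, 109 and 12 with a Cd3 sum of at least 1 and at least 3, 14 with thinned wells, and 3 to 37 with a plate left out (3 without FibCtrl replicate 4, 17 without FibΔZeb1 replicate 1). The 114 alternative values of the members were positive (0.22 to 3.58). Of these, 8 lost a call and 10 gained one, and Icos was called with thinned wells (1.29, edgeR quasi-likelihood adjusted p = 0.0364). Genotype in T cell wells called 1 gene, 3 with DESeq2 and with wells of other clusters left out, 75 with no filter, 0 with a Cd3 sum of at least 1, any class, thinned wells or flow cell as a covariate, and 0 to 16 with a plate left out (16 without FibCtrl replicate 1, 2 without FibΔZeb1 replicate 4). The members stayed negative in 173 such values (-2.54 to -0.16) and in 163 for all immune wells (-3.27 to -0.98). Epithelial wells called 0 genes, 1 with DESeq2, and 0 with any plate left out, as did immune wells. The difference in T cell share ran from -12.2 to -2.64 percentage points with a plate left out. Where a count moved with fewer genes or wells tested, that was part of the change, and otherwise the cause was not tested.

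With the replicate number as a block, genotype called 0 genes in T cell wells. Same-numbered plates shared a flow cell, as did those of the next number, and were not treated as pairs, since the correlation of their deviations did not pass 0.1 in every pair. It was -0.20, 0.01 and -0.01 in T cell wells, 0.09 to 0.20 in immune wells and 0.08 to 0.54 in epithelial wells, where 3 of 4 pairs were above 0.1. The block called 0 genes in immune and epithelial wells too.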
